A study of Mus musculus with 4 samples.

Results

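*Faxc*, *Tex264*, *Lemd1* and *Odf2l* are genes in which, by the deposited ratios, an exon was included less often without the splicing regulator PTBP2, both in embryonic brain and in newborn cortex. They were chosen by those differences in inclusion between knockout and wild type, so the values that compare knockout with wild type are given as a description and carry no test. Inclusion was measured over trios, sets of 3 consecutive exons in which the middle exon may be kept or skipped. Every trio whose chromosome, strand, middle exon length and intron lengths match one of these genes in the GENCODE M21 annotation was taken. This gave 47 of 228333 trios, with 27 different middle exons. Of the 9319 middle exons that the SpliceTrap database lists as cassette exons, meaning exons known to be skipped in some transcripts, 7 lay in these genes. There were 9 trios in *Faxc*, 7 in *Tex264*, 10 in *Lemd1* and 21 in *Odf2l*.

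The RNAseq compared mouse brains lacking PTBP2 with brains of littermates at embryonic day 18 (E18) and postnatal day 1 (P1), with 1 library per group and therefore no replicate error. The E18 NesKO library came from whole brains of 2 embryos, in which Cre under the nestin promoter removes the floxed exon 4 of *Ptbp2* in neural progenitors and their progeny, and the E18 wild-type library from 2 littermates. The P1 EmxKO library came from the cortex of an animal whose Cre is driven by *Emx1* in the higher forebrain, and which cells of that cortex kept the exon was not measured. The last library came from the cortex of a littermate labelled wild type. The labels give the strain of all animals as Mixed C56Bl/6:129S2 background. The P1 libraries were strand specific and the E18 libraries were not, so stage, tissue, Cre line and library protocol cannot be told apart. Intervals cover counting error only.

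Skipping of the floxed *Ptbp2* exon stood at 100% in the NesKO library against 0.225% in its wild type. It stood at 82.6% in the EmxKO library and at 31.5% in the P1 library labelled wild type, so the P1 pair differed by less in the targeted exon than the E18 pair. Reads on distinct junctions came to 49445721 and 51267564 at E18 and to 84793098 and 85073560 at P1. Junction reads of marker genes, summed and scaled to the junction reads of the library (per 1000000 reads), in the order NesKO, E18 wild type, EmxKO and P1 library labelled wild type, were 1440, 1800, 2280 and 2360 for 5 neuronal genes. *Tubb3* made up most of this sum, with 944, 973, 1500 and 1190, while *Snap25*, which encodes a synaptic fusion protein, had 88.3, 189, 63.0 and 124 and the dendritic gene *Map2* 267, 382, 360 and 623. They were 116, 127, 367 and 436 for the 3 of 5 cortical genes that have trios, 146, 188, 170 and 151 for 3 astrocyte genes (of which *Gfap* 64.4, 23.2, 28.2 and 12.0 and *Slc1a3* 74.9, 155, 141 and 137), and 74.7, 54.4, 44.9 and 29.3 for the 2 of 3 microglial genes that have trios. The oligodendrocyte list (2 of 3 genes with trios) gave 27.0, 31.4, 9.86 and 9.51, and the endothelial list of 3 genes 121, 141, 79.6 and 68.9. *Lhx9*, the only gene of 5 with trios on the list for brain outside the cortex, gave 15.5, 18.1, 0.436 and 1.34. Genes of ciliated cells and choroid plexus stood at 1700 in the NesKO and 996 in its wild type, of which the choroid plexus gene *Ttr* made up 1690 and 967, and at 13.8 and 15.4 at P1. At E18 *Kl* was also higher in the NesKO, with 0.93 against 0.78. *Foxj1*, *Dnah5* and *Ccdc39* were lower there, with 2.33, 2.71 and 12.1 against 3.96, 5.21 and 18.6 in the wild type. No gene with trios was at 0 in any library, and the part of these cell types in the values below was not tested. In bulk tissue, fewer cells of a type and less RNA per cell cannot be told apart.

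PTBP2 is a neuronal RNA-binding protein of the polypyrimidine tract binding family. It binds pyrimidine-rich sequences in and around exons, and for many exons it represses inclusion, while others are included less without it. An exon whose length is a multiple of the codon length can be skipped without changing the reading frame after it, whereas other exons shift the frame, and a stop codon far upstream of the last exon junction can mark an mRNA for nonsense-mediated decay. *Faxc* is the mouse homolog of the fruit fly gene failed axon connections, which acts in axon development. *Tex264* encodes a receptor of the endoplasmic reticulum membrane that brings pieces of this membrane to autophagosomes, *Lemd1* a protein with a LEM domain, a fold found in proteins of the inner nuclear membrane, and *Odf2l* a protein of centrioles and basal bodies that restrains cilium formation.

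The exons that carry the differences are shown by their coding sequence, 5′ to 3′, taken from GENCODE M21 transcripts. Capitals mark CTCTCT and TCTT, pyrimidine motifs that polypyrimidine tract binding proteins are known to bind, and in *Tex264* the start codon of the protein. The deposited coordinates are on mm9.
*Faxc* exon 3 (chr4:21875839-21876035, plus strand): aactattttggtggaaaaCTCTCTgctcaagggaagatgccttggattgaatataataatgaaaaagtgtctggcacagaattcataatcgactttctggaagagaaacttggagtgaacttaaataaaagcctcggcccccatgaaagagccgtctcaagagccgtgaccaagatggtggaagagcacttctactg
*Tex264* exon 3 (chr9:106584199-106584494, minus strand), the 258 coding bases: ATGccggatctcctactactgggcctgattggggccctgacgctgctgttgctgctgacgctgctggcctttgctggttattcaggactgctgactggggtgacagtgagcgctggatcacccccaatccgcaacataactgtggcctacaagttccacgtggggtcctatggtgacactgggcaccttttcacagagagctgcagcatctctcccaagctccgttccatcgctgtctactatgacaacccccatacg
*Lemd1* exon 4 (71 nt, chr1:134128844-134128914, plus strand): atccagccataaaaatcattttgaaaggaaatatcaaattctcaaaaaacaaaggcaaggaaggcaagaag
*Odf2l* exon 4 (129 nt, chr3:144789987-144790115, plus strand): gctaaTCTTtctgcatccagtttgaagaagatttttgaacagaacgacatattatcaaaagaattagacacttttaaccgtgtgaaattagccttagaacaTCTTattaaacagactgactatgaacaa

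Exon numbers follow, in each gene, a coding GENCODE transcript that contains the exon. *Faxc* exon 3 holds 1 CTCTCT near its start and no TCTT, and *Odf2l* exon 4 holds 2 TCTT and no CTCTCT. Neither motif occurs in the other exons shown, over their whole length and on the sense strand. In the first 71 nt, the length of the shortest of these exons, CTCTCT was present in 3.02% and TCTT in 26.1% of 6364 cassette exons. Pyrimidines made up 42.6% of the bases in *Faxc* exon 3, 53.7% in *Tex264* exon 3, 32.4% in *Lemd1* exon 4 and 47.3% in *Odf2l* exon 4, against a median of 48.4% over the cassette exons.

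The 4 exons differ in what skipping does to the annotated reading frame. *Odf2l* exon 4 alone leaves no remainder when divided into codons, and its loss shortens the frame from 642 to 599 codons with the same stop codon. *Faxc* reads 409 codons with all exons, 146 without exon 3, 200 without exon 4, and 170 without exons 3 and 4. Without exon 3 the frame ends at a TGA that begins at base 37 of exon 4, 302 nt before the last exon junction, and without exons 3 and 4 at a TAA at base 109 of exon 5, only 6 nt before that junction. Without exon 4 alone it ends at a TGA at base 2 of exon 5, 113 nt before that junction. Joins of exon 3 to exon 5, which make this form, count as inclusion of exon 3 in its cassette trio. An included exon 3 thus does not always keep the full frame. These are the *Faxc* sequences across the joins that skip exon 3, from 15 bases before the join to the stop codon in capitals.
Exon 2 to exon 4: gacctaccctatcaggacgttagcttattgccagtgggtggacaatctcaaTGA
Exon 2 to exon 5: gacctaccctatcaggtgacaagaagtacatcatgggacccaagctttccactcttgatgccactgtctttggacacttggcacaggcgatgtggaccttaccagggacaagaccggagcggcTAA

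In *Tex264* the start codon lies at base 39 of exon 3, so skipping removes it together with the first part of the coding sequence. The longest frame that remains from an ATG starts in exon 5, ends at the annotated stop codon and has 129 codons in place of 309. In *Lemd1* the reading frame of each form runs into the last exon, with 101 codons when exon 4 is included and 129 when it is skipped. These frames are read from annotated transcripts, and no protein was measured.

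Percent spliced in (PSI) is the deposited inclusion ratio of SpliceTrap after its correction, as a percentage, and differences are knockout minus wild type in PSI points. At E18, 41 of the 47 trios had at least 20 junction reads in both libraries, and 8 of them were lower in the knockout by at least 10 points and 1 was higher. The background over all trios was 1.04% lower and 1.37% higher. At P1 all 47 trios had these reads, 7 were lower and 0 higher, against 0.591% and 0.929% of all trios. The median difference of the trios was 0.0 at each stage, since most middle exons of these genes were included in nearly all reads. The genes were chosen for the losses, so these counts restate the choice.

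Among 6474 cassette exons with enough reads in all 4 libraries, 44 (0.68%) fell by at least 10 points in both knockouts. Ordered by the smaller of the losses at E18 and P1, *Faxc* exon 3 stood first and *Tex264* exon 3 at rank 2, with differences of -38.4 and -32.3 points and of -33.0 and -29.5 points. The next exon, 89 nt of *Fggy*, had -22.2 and -24.9 points. *Odf2l* exon 4 stood at rank 26, with -31.8 and -12.8 points, and *Lemd1* exon 4 at rank 37, with -43.0 and -10.6 points. A second trio of *Lemd1* exon 4, with the same junction reads, gave -38.9 and -8.8 points. The place of *Lemd1* exon 4 among the shared losses of at least 10 points thus depends on the trio. By this order *Faxc* and *Tex264* had the strongest losses shared by both stages. Ordered by inclusion from junction reads alone, *Faxc* exon 3 again stood first, *Fggy* at rank 2, *Tex264* exon 3 at rank 4, *Lemd1* exon 4 at rank 40 and *Odf2l* exon 4 at rank 49. A second trio of *Tex264* exon 3 gave -15.1 and -19.7 points, so its place depends on the measure and the trio. By the deposited ratio *Lemd1* and *Odf2l* stood higher at E18, at ranks 2 and 13 there and 136 and 87 at P1. Cassette exons lower by 10 points made up 3.94% of those tested at E18 and 2.59% at P1.

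**Figure D1:**
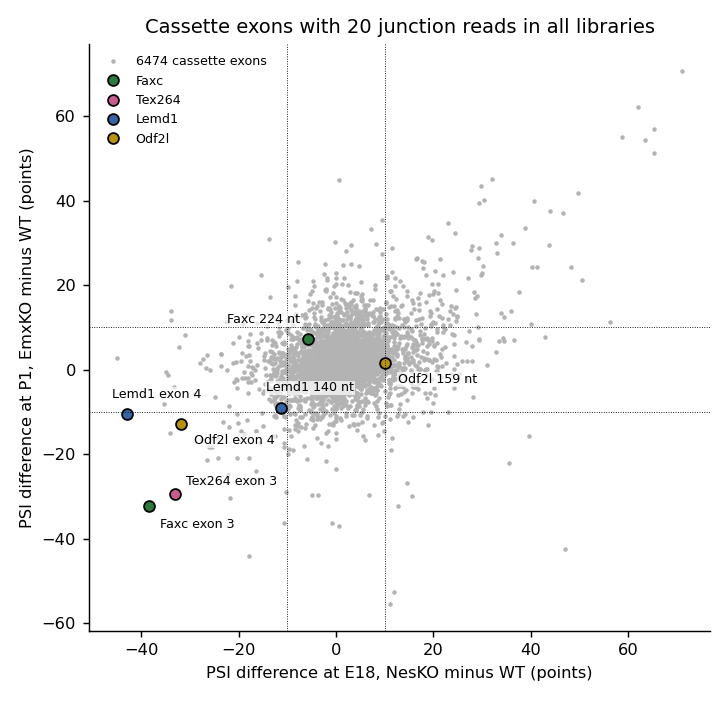
PSI differences of 6474 cassette exons, with NesKO minus wild type at E18 on the x axis and EmxKO minus the library labelled wild type at P1 on the y axis, in PSI points. Grey points are exons, coloured points the cassette exons of the 4 genes and dotted lines 10 points; *Faxc* exon 3 (-38.4, -32.3) and *Tex264* exon 3 (-33.0, -29.5) lie at the lower left, with *Lemd1* and *Odf2l* closer to the line at P1.

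In its cassette trio, *Faxc* exon 3 had a lower PSI in each knockout than in its control. This trio does not count joins of exon 3 to exon 4, so its PSI is not a share of all transcripts. Joins to the last exon aside, these joins made up 44.6% of reads leaving exon 3 in the NesKO and 52.9% in its wild type. At P1 they made up 70.4% in the EmxKO and 64.5% in the library labelled wild type. The values that follow are those of the cassette trio. PSI was 30.0 in the NesKO and 68.4 in the E18 wild type, and 40.6 in the EmxKO and 72.9 in the P1 library labelled wild type. In this trio, reads entering, leaving and skipping the exon numbered 45, 52 and 186 in the NesKO and 132, 107 and 83 in its wild type. At P1 they numbered 304, 131 and 354 in the EmxKO and 532, 255 and 151 in the library labelled wild type. Skipping reads thus outnumbered the reads of either inclusion junction in each knockout and were the fewest in each control. Inclusion from these reads alone was 20.7% (95% Wilson interval, 16.0 to 26.3) and 59.0% (52.1 to 65.6) at E18, a difference of -38.3 points (95% Newcombe interval, -46.4 to -29.4). It was 38.1% (34.2 to 42.1) and 72.3% (68.4 to 75.9) at P1, a difference of -34.2 points (-39.5 to -28.6). The intervals of knockout and control did not overlap at either stage. The same held for *Tex264* exon 3 at both stages and for *Lemd1* exon 4 at E18, while intervals with the knockout below its control were apart in 1.78% of cassette exons at E18 and 1.9% at P1.

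**Figure D2:**
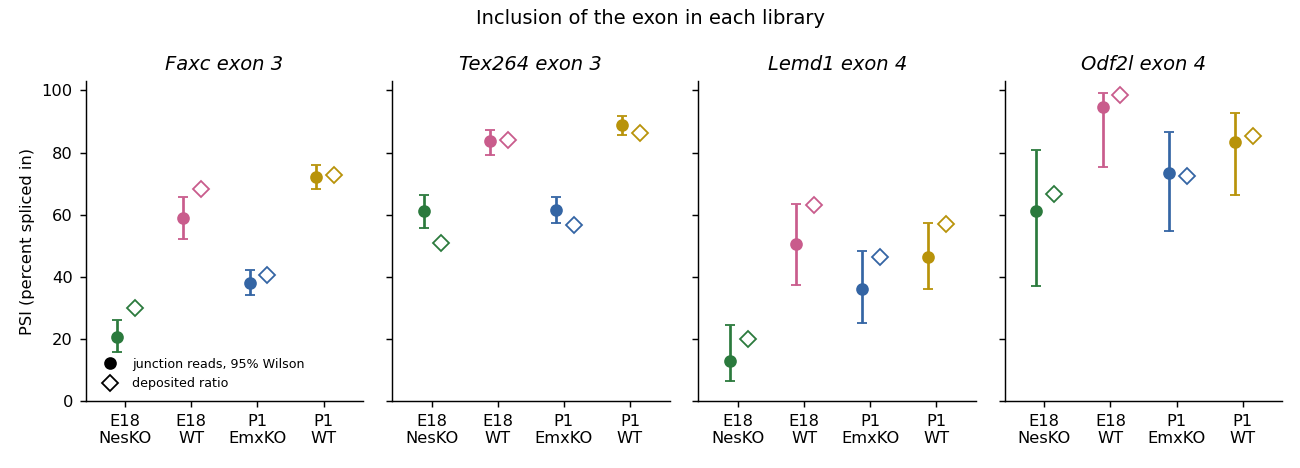
Inclusion of the described exon of each gene by library, in percent spliced in: filled circles show inclusion from junction reads with 95% Wilson intervals (counting error only), open diamonds the deposited ratio. *Faxc* and *Tex264* are lower in each knockout than in its control by more than the intervals, the *Lemd1* exon at E18 only, and the *Odf2l* intervals overlap at both stages.

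A second trio places *Faxc* exon 3 between exon 2 and exon 4, the 224 nt exon, and is listed in the database as constitutive. It gave PSI of 69.5 and 97.2 at E18 and 84.2 and 98.1 at P1, differences of -27.7 and -13.9 points. The trios of this exon agree in direction and differ in level because they count different skipped forms: 20, 6, 44 and 9 reads joined exon 2 to exon 4 in the NesKO, E18 wild type, EmxKO and P1 library labelled wild type, whereas the main trio counts joins of exon 2 to exon 5. The junction from exon 2 to exon 3 is counted in 4 trios, between 45 and 51 times in the NesKO and between 519 and 532 times in the P1 library labelled wild type.

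Over all trios, with the highest count for each junction, joins of exon 2 to exons 3, 4 and 5 could be set side by side. Joins to the last exon, with 6, 5, 33 and 7 reads in the order used above, are not in these shares. A 2198 nt exon begins at the same splice site as exon 3, so reads into exon 3 may include reads into that exon. Exon 2 was joined to exon 3 in 18.0% of the NesKO reads (51 of 284; Wilson interval, 13.9 to 22.8) and in 53.7% of the E18 wild-type reads (132 of 246; 47.4 to 59.8). At P1 the shares were 42.1% (314 of 745; 38.6 to 45.7) in the EmxKO and 73.4% (532 of 725; 70.0 to 76.5) in the library labelled wild type. Joins to exon 5, which leave out exons 3 and 4 together, took 75.0% and 43.9% at E18 and 51.9% and 25.4% at P1. Joins to exon 4 took 7.04% and 2.44% at E18 and 5.91% and 1.24% at P1. The form without exons 3 and 4 was therefore the commoner of the skipped forms in every library, and each skipped form held a larger share in the knockout.

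**Figure D3:**
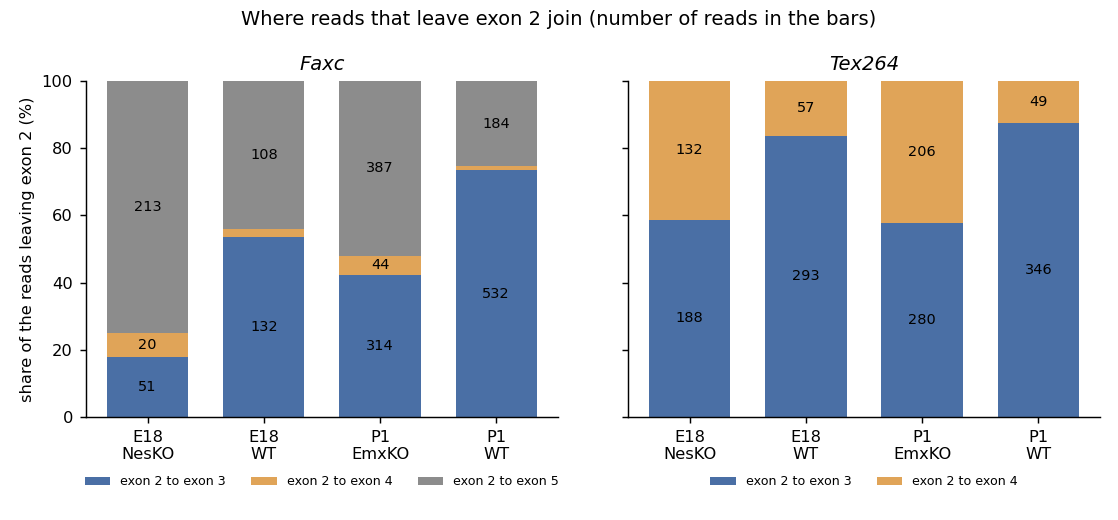
Shares of the junction reads leaving exon 2 of *Faxc* (left) and *Tex264* (right) in each library, in percent, stacked by the exon they join, with the number of reads in the bars. Joins of *Faxc* exon 2 to the last exon are not counted. In *Faxc* joins to exon 5 make up 75.0% of the NesKO reads and 43.9% of the E18 wild-type reads. At P1 they make up 51.95% in the EmxKO and 25.4% in the library labelled wild type. In *Tex264* joins to exon 4 make up 41.2% and 16.3% at E18 and 42.4% and 12.4% at P1, knockout first.

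*Faxc* exon 4, the other cassette exon of the gene, did not show a shared loss in its own cassette trio, which runs from exon 3 to exon 5. That trio leaves out joins of exon 2 to exon 5, which skip exon 4 as well. Of the reads reaching exon 5 from exons 2, 3 and 4, those from exon 4 made up 43.0% in the NesKO and 71.7% in its wild type. At P1 they made up 42.05% in the EmxKO and 52.1% in the library labelled wild type. PSI in the cassette trio was 74.7 and 80.4 at E18 and 74.3 and 67.1 at P1. From junction reads the difference was -7.02 points (Newcombe interval, -14.8 to 0.211) at E18 and 8.48 points (3.22 to 13.6) at P1. Reads from exon 4 to exon 5 were 2.67 times those entering exon 4 in the NesKO and 3.99 times in the E18 wild type, and 0.975 and 0.998 times at P1. The same ratio for exon 3 was 2.73 and 2.06 at E18 and 1.61 and 1.40 at P1. The E18 libraries, in which both ratios were larger, carry no strand, and the part of the protocol in this was not tested.

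*Tex264* exon 3, which carries the start codon, was the major form in all 4 libraries and fell in both knockouts. PSI was 50.9 in the NesKO, 83.9 in the E18 wild type, 56.8 in the EmxKO and 86.3 in the P1 library labelled wild type. Reads entering, leaving and skipping the exon were 172, 232 and 128 in the NesKO and 270, 272 and 53 in its wild type. They were 252, 374 and 195 in the EmxKO and 301, 408 and 44 in the P1 library labelled wild type. Each knockout thus held more skipping reads and fewer inclusion reads than its control. From these reads inclusion was 61.2% (Wilson interval, 55.9 to 66.3) and 83.6% (79.2 to 87.3) at E18, a difference of -22.4 points (-28.9 to -15.7). At P1 it was 61.6% (57.3 to 65.7) and 89.0% (85.5 to 91.7), a difference of -27.3 points (-32.4 to -22.0). The deposited difference at E18, -33.0 points, lies outside the interval from the E18 reads, while the direction was the same.

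The other trio of *Tex264* exon 3 has a 1006 nt form of exon 2 as its upstream exon and shares its splice sites with the main trio. Junction reads gave nearly the same inclusion in both, 61.2% and 83.1% at E18 and 61.0% and 88.2% at P1 for the longer one. The deposited PSI of the longer trio was higher, at 77.9 and 93.0 at E18 and 74.2 and 93.9 at P1, with differences of -15.1 and -19.7 points. Coverage of the upstream exon differed between the trios. It was 448 reads per 100 nt in the NesKO for the 67 nt form and 76.0 for the 1006 nt form. The highest counts over all trios gave a share of reads skipping from exon 2 to exon 4 of 41.2% (36.0 to 46.7) in the NesKO and 16.3% (12.8 to 20.5) in its wild type, and of 42.4% (38.1 to 46.8) and 12.4% (9.51 to 16.0) at P1.

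*Tex264* starts from several first exons, which all join the 67 nt exon 2. Reads from the 114 nt first exon were 261 and 178 at E18 and 195 and 183 at P1, those from the 424 nt first exon 61 and 44 and then 178 and 179, and those from the 48 nt first exon 18 and 23 and then 57 and 44. At most 3 reads joined any of these first exons directly to exon 3, so the exon 2 junctions hold nearly all of the reads into it.

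*Lemd1* exon 4 had a PSI far below its control in the NesKO and closer to its control in the EmxKO. PSI was 20.2 and 63.2 at E18 and 46.5 and 57.1 at P1, so the NesKO value stood well below the other 3. The trio held 61 and 79 junction reads at E18 and 85 and 118 at P1. Inclusion from reads was 12.96% (Wilson interval, 6.42 to 24.4) against 50.5% (37.4 to 63.5) at E18, a difference of -37.5 points (-52.1 to -20.1). At P1 it was 36.0% (25.2 to 48.4) against 46.6% (36.1 to 57.4), a difference of -10.6 points (-25.8 to 5.65). The intervals overlap at P1, so a loss there was not detectable from the reads at this depth. Of the P1 reads reaching the last exon, those from exon 4 made up 25.0% (16.4 to 36.1) in the EmxKO. The share was 23.4% (16.4 to 32.2) in the library labelled wild type, so no loss was seen by this share. The total of this share also holds reads from the other cassette exon of the gene, 5 in the EmxKO and 19 in its control. In the trio, the downstream junction alone, set against the skipping reads, gave a difference of -5.73 points at P1. Whether this side of the exon showed a loss thus depends on the reads counted. Whether the differences at E18 and P1 differ was not tested, and their intervals overlap. A second cassette trio of this exon, with a last exon of 686 nt in place of 2531 nt, rests on the same reads and gave PSI of 17.5 and 56.4 at E18 and 41.8 and 50.6 at P1.

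The other cassette exon of *Lemd1*, 140 nt (chr1:134151932-134152071), belongs to a transcript annotated for nonsense-mediated decay, whose frame has 69 codons. Its PSI was 8.6 and 20 at E18 and 9.3 and 18.3 at P1, differences of -11.4 and -9.0 points. A second cassette trio of this exon, with the 686 nt last exon, rests on the same reads. It gave PSI of 6.3 and 13.1 at E18 and 6.6 and 12.1 at P1, differences of -6.8 and -5.5 points. Its reads were 55, 41, 48 and 71 in the order used above, and the Newcombe intervals of the differences, -22.3 to 4.29 and -21.6 to 2.82, include 0. Reads into this exon were 2, 0, 0 and 0 in its own trio, and up to 10, 14, 6 and 9 for the same junction in a trio that ends with the exon, so its level depends on the trio. Taking the highest counts, exon 3 of *Lemd1* was joined directly to the last exon in 69.9% (59.3 to 78.7) of the NesKO reads and 46.5% (37.0 to 56.2) of its wild type, and in 59.8% (48.9 to 69.7) and 51.6% (42.9 to 60.3) at P1.

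*Odf2l* exon 4 was close to full inclusion in the E18 wild type and lower in the other libraries. PSI was 66.7 in the NesKO, 98.5 in the E18 wild type, 72.6 in the EmxKO and 85.4 in the P1 library labelled wild type. Skipping reads were 6, 1, 7 and 5 in that order, of 25, 37, 46 and 55 junction reads. With so few reads the intervals are wide. Inclusion from reads was 61.3% (Wilson interval, 37.2 to 80.9) against 94.7% (75.4 to 99.1) at E18, a difference of -33.4 points (-57.9 to -5.90). At P1 it was 73.6% (54.6 to 86.6) against 83.3% (66.4 to 92.7), a difference of -9.75 points (-30.9 to 11.6). The loss at P1 was not detectable from the reads at this depth. Skipping counts depend on the trio: with the highest count of each junction over all trios they were 8, 1, 13 and 9. By these counts exon 3 was joined to exon 4 in 63.6% of the NesKO reads and 96.15% of its wild type. At P1 the shares were 64.9% (48.8 to 78.2) and 76.9% (61.7 to 87.35).

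Exon 13 of *Odf2l*, 159 nt, is the other cassette exon of the gene and was higher in the NesKO, with PSI of 17.5 and 7.4 there and 33.3 and 31.7 at P1. Only 2, 2, 9 and 5 reads included it on both junctions together, and its loss or gain could not be resolved, with Newcombe intervals of -9.56 to 21.04 and -7.08 to 31.7. Of the 19 constitutive trios of the gene, 13 had enough reads at E18, with differences from -3.6 to 0.0 points. At P1 they ranged from -11.3 to 3.7 points. The value of -11.3 belonged to a trio of the 105 nt exon in which 3 reads skipped it in the EmxKO, and the other trio of that exon, with 0 skipping reads, gave 0.0.

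Apart from the cassette exons, most middle exons of these genes were included in nearly all reads. In *Faxc* the 6 trios of exons 2 and 5 had PSI from 95.7 to 99.9. In *Tex264* the 5 trios of the other exons ranged from 98.6 to 99.9, and in *Lemd1* the 6 constitutive trios from 97.8 to 99.9. In *Odf2l* the 19 constitutive trios ranged from 88.6, for the 105 nt exon in the EmxKO, to 99.9. The 3 *Faxc* trios of exon 2 differed by -0.8 to 1.3 points and the 3 trios of exon 5 by -2.8 to 0.9 points, each counting both stages. The losses were thus found in trios of 5 of the 27 middle exons at E18 or P1, apart from the single trio of the 105 nt *Odf2l* exon. They were the 4 described in full and the 140 nt exon of *Lemd1*. The latter passed 10 points only at E18 and only in the trio with the 2531 nt last exon. At P1 *Lemd1* exon 4 also passed 10 points only in its trio with the 2531 nt last exon.

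**Figure D4:**
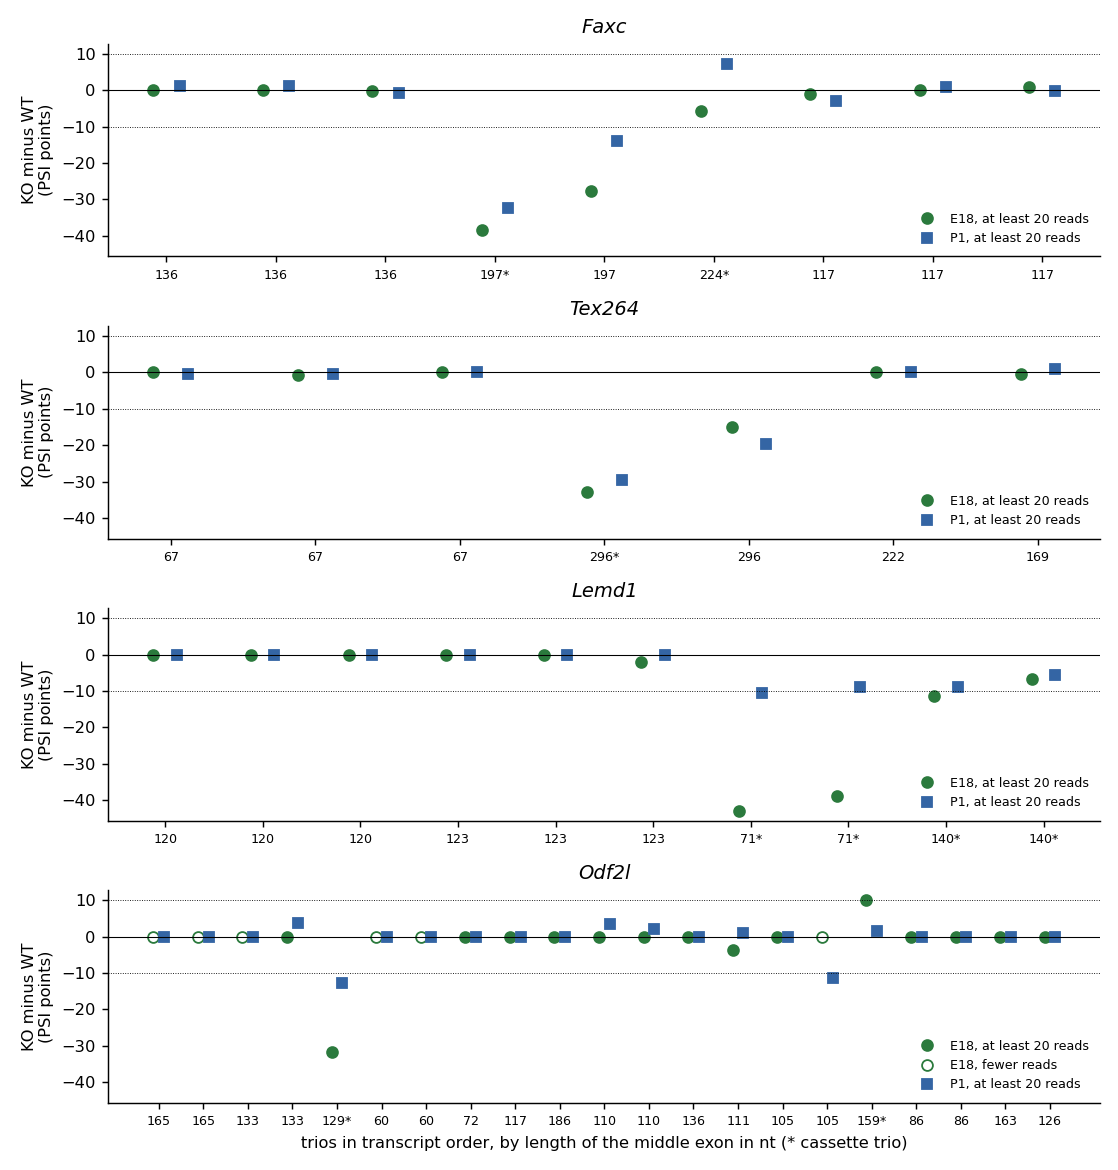
PSI difference, knockout minus control, of each trio of the 4 genes in transcript order, labelled by the length of its middle exon in nt, with circles for E18 and squares for P1. Open symbols mark trios with fewer than 20 junction reads in either library and dotted lines 10 points. The trios of *Faxc* exon 3, *Tex264* exon 3, *Lemd1* exon 4 (71 nt) and *Odf2l* exon 4 (129 nt) lie below 0 and most other trios near 0. Away from it lie *Faxc* 224 nt (-5.7 and 7.2), *Odf2l* 159 nt at E18 (10.1) and an *Odf2l* 105 nt trio at P1 (-11.3). The *Lemd1* 140 nt trios also do (-11.4 and -9.0, and -6.8 and -5.5).

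Read coverage inside the exons was lower in each knockout than in its control. Coverage is the number of reads per 100 nt of exon, and was set against the mean of the neighbouring exons of the trio. For *Faxc* exon 3 the ratio was 0.468 in the NesKO and 1.11 in the E18 wild type, and 0.635 in the EmxKO and 1.09 in the P1 library labelled wild type, from 256, 524, 913 and 1518 reads in the exon. For *Tex264* exon 3 it was 0.636 and 1.01 at E18 and 0.733 and 1.08 at P1, from 989, 1426, 1500 and 1725 reads. For *Lemd1* exon 4 it was 0.579 and 1.69 at E18 and 1.43 and 1.69 at P1, from 17, 58, 49 and 87 reads. For *Odf2l* exon 4 it was 0.915 and 1.42 at E18 and 1.04 and 1.13 at P1, from 22, 39, 45 and 62 reads. The order of knockout below control held in all 8 pairs. SpliceTrap uses these reads with the junction reads, so coverage is not independent of PSI. The exons were chosen for lower PSI in the knockouts, so this order largely restates the choice.

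**Figure D5:**
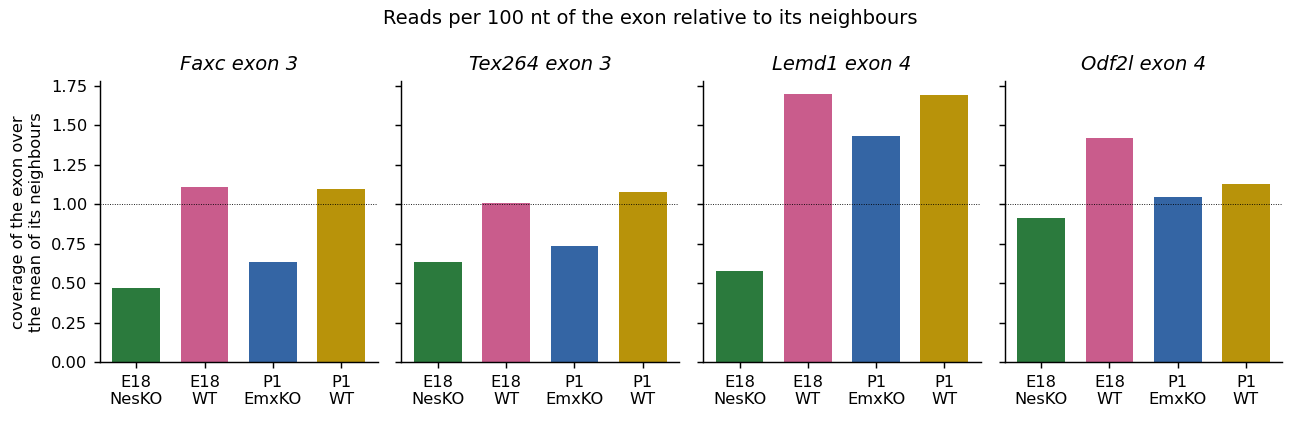
Coverage of the described exon (reads per 100 nt) divided by the mean coverage of its neighbouring exons in the trio, for each gene and library, as bars from 0 with a dotted line at 1. *Faxc* exon 3 stands at 0.468 in the NesKO and 1.11 in its wild type, and each knockout bar is lower than its control.

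Junction reads of the genes themselves were higher in both knockouts for *Tex264*, and lower in both, to different degrees, for *Faxc*, *Lemd1* and *Odf2l*. Summed over distinct junctions, *Tex264* had 38.7 and 34.7 reads per 1000000 junction reads at E18 and 36.2 and 31.0 at P1, knockout first, which are ratios of 1.12 and 1.17. *Faxc* had 27.3 and 39.97 at E18 and 46.5 and 49.4 at P1, ratios of 0.683 and 0.940. *Lemd1* had 4.43 and 6.85 and then 2.63 and 3.88, ratios of 0.647 and 0.678, and *Odf2l* 8.21 and 8.91 and then 7.18 and 8.58, ratios of 0.921 and 0.837. A skipped exon removes a junction from the sum, so these ratios are not free of the splicing difference, and without replicates they have no test.

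Between the stages, *Faxc* exon 3 was higher at P1 than at E18 in both genotypes, by 4.5 PSI points in the controls and 10.6 points in the knockouts. From junction reads these differences were 13.3 points (Newcombe interval, 5.63 to 21.02) and 17.4 points (10.5 to 23.6). *Tex264* exon 3 differed by 2.4 and 5.9 PSI points, and from junction reads by 5.32 points (0.305 to 10.5) and 0.402 points (-6.27 to 7.16). *Lemd1* exon 4 was 6.1 points lower at P1 in the controls and 26.3 points higher in the knockouts, with junction read differences of -3.89 points (-20.6 to 13.1) and 23.04 points (7.31 to 37.1). For *Odf2l* exon 4 the PSI differences were -13.1 points in the controls and 5.9 points in the knockouts, and the intervals from reads include 0 in each genotype. The samples at the stages differ in tissue, Cre line and library protocol as well as age.

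The cassette exons whose 4 PSI values lay closest to those of each exon were found by Euclidean distance in PSI points, over 4 libraries. For *Faxc* exon 3 they were the 138 nt exon of *Immt* (distance 16.0), the 295 nt exon of *Pstk* (17.1) and *Lemd1* exon 4 (20.2). For *Tex264* exon 3 they were the 123 nt exon of *Pacsin2* (12.8), the 105 nt exon of *Immt* (15) and the 121 nt exon of *Acbd4* (15.8). For *Lemd1* exon 4 they were the 132 nt exon of *Syt7* (18.0), *Faxc* exon 3 (20.2) and the 102 nt exon of *Cadm3* (21.4), and for *Odf2l* exon 4 the 83 nt exon of *Mettl5* (12.7), the 127 nt exon of *Gtf2a2* (12.9) and the 117 nt exon of *Sirt1* (14.3). *Immt*, which encodes a mitochondrial inner membrane organizer, was near *Faxc* and *Tex264* with different exons: its 138 nt exon had PSI of 41.1 and 67.3 at E18 and 51.6 and 69.9 at P1.

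Losses and gains in other genes of the same families were counted with the same threshold. Among 8 other reticulophagy receptor genes, 6 cassette exons were tested at each stage, 0 fell by 10 points and 1 rose, the 127 nt exon of *Retreg3* at E18, with PSI of 96.2 without and 81.5 with PTBP2. Among 6 other LEM domain genes, 4 exons were tested and 1 fell at E18, the 111 nt exon of *Tmpo*, which encodes the lamina-associated polypeptides, with 49.3 and 59.5, and 0 fell at P1. Among 9 other genes of centriolar appendages, 14 exons were tested at E18 and 15 at P1, and 1 fell at each stage. These were the 47 nt exon of *Nin*, which encodes the centrosomal protein ninein, with 42.5 and 56.4 at E18 from 26 and 34 reads, and the 96 nt exon of *Fbf1* with 74.2 and 84.4 at P1. No cassette exon of the 3 metaxin genes, relatives of *Faxc*, could be tested. These counts stand beside 3.94% of all cassette exons lower and 6.98% higher at E18, and 2.59% and 6.83% at P1.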

How the data were processed

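Per the labels, the authors made polyA+ TruSeq libraries, sequenced them as paired 100 nt reads, and used CASAVA, TopHat and Cufflinks with mm9. The deposited SpliceTrap tables give, per trio, the inclusion ratio, a fraction, with and without its correction, the junction read counts and the exon coverage as signal (reads per 100 nt of exon), as deposited by the authors. Trios were named from GENCODE M21 by matching chromosome, strand, middle exon length and intron lengths (209930 of 228333 named). For each exon the cassette trio with the most junction reads was used, and ties were broken by the order of the trio identifiers. Both libraries of a pair had to hold 20 junction reads, and 10 PSI points counted as a change. Inclusion from reads divides the mean count of the 2 junctions of the exon by that mean plus the skipping reads, with 95% Wilson and Newcombe intervals (Python 3.11.15, pandas 2.3.3, scipy 1.17.1). Junction reads per cassette exon had a median of 177, 195, 313 and 359 per library. The smallest share that a floor of 3 reads allows at these medians is 1.69%, 1.54%, 0.958% and 0.836%. The scripts were tested on simulated data. With 1 library per group no test across samples was made. Genes, exons and lists were chosen with earlier results of these data known. Alternatives covered the measure, trio, read minimum and call rule, including Fisher's exact test on reads.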

Additional observations from a re-analysis of the deposited data

Results flagged for a closer look

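*Faxc* exon 4 (224 nt) moved in opposite directions at the stages, by -5.7 PSI points in the NesKO and by 7.2 points in the EmxKO. With 1 library per group the difference between the stages was not tested.

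A *Tex264* trio that the naming rule does not reach holds an alternative 5′ splice site 18 nt apart at exon 2, joined to exon 4. Its deposited PSI was higher in the knockouts by 21.5 points at E18 (93.6 and 72.1) and 30.3 points at P1 (96.4 and 66.1). Junction reads gave 95.7% and 96.6% at E18 and 96.1% and 100% at P1, from 137, 57, 202 and 53 reads, so the difference in the deposited ratio was not seen in the reads. All inclusion reads, 134, 56, 198 and 53, lay on 1 junction, so where skipping reads were present the mean over 2 junctions understates inclusion. Skipping reads numbered 3, 1, 4 and 0. The difference in the deposited ratio was not tested.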

How the results depend on the processing

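Of 48 recomputed exon differences, 42 moved from the main value by no more than the arm of the 95% counting interval on that side, 6 moved by more and 0 changed sign. The interval is centred on the difference from junction reads, and for *Tex264* exon 3 at E18 (-28.9 to -15.7) it does not hold the main value of -33.0 points. Some alternatives equalled the main value by construction and could not move. For *Faxc*, *Lemd1* and *Odf2l* the trio with the most skipping reads was the main trio. For *Odf2l* the median over trios was the main value too. For *Lemd1* and *Odf2l* the intervals are wide, so only large moves would count. The count of 42 is therefore a weak measure of stability. The median over all trios of the exon gave -23.1 points for *Faxc* exon 3 at P1 and -24.0 points for *Tex264* exon 3 at E18. For *Tex264* exon 3 at E18, junction reads gave -22.4 points, the downstream junction alone -19.2 points and the trio with the most skipping reads -15.1 points. That trio gave -19.7 points at P1. The cause was not tested. The count of cassette exons lower by 10 points, 266 at E18 and 180 at P1, was 165 and 118 with at least 50 junction reads, 564 and 429 with no minimum, and 929 and 540 with constitutive exons included. It was 46 and 48 when Fisher's exact test on the reads was also asked for (adjusted p under 0.05), a test that compares these libraries and not the genotypes. The rank of the shared loss from junction reads, an alternative chosen after seeing the data, moved from 2 to 4 for *Tex264* exon 3 and from 26 to 49 for *Odf2l* exon 4. The count at both stages stayed at 44 from junction reads and was 31 with at least 50 reads. No paired analysis was possible because each group has 1 library and the labels carry no replicate numbers, and no library could be left out for the same reason. *Lemd1* and *Odf2l* are limited by depth, with 25 to 118 junction reads in the trios of the exons described in full.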

Other observations

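*Tex264* has 5 further trios at its locus that the naming rule does not reach. In 3 of them PSI differed by at most 1.0 point between knockout and control at either stage, and a trio with a 54 nt middle exon differed by -5.9 points at E18 and 2.4 points at P1.

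Reads joining exon 2 of *Faxc* directly to the 8164 nt last exon, past exons 3, 4 and 5, numbered 6 and 5 at E18 and 33 in the EmxKO and 7 in the P1 library labelled wild type. Reads joining the 504 nt first exon to exon 5 numbered 7 and 4 at E18 and 20 and 10 at P1.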
